A study of Solanum lycopersicum with 12 samples.

Results

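The transcriptome of wild-type (WT) tomato fruits was read from the 3 WT libraries among the 12 libraries of the series, chosen by their genotype label alone, and each gene of the deposited table was ranked in them by its abundance. The WT was *Solanum lycopersicum* cv. Micro-Tom, a dwarf tomato, without a transgene, and its fruits were picked at 5 days post-anthesis (DPA). The other 9 libraries came, 3 each, from Micro-Tom fruits of the same age that carried the grapevine sucrose transporter gene *VvSUC11*, *VvSUC12* or *VvSUC27* behind the 35S promoter, a viral promoter active in most plant tissues. Each overexpressing (OE) genotype was sampled from its line number 5 alone, in the T1 generation for *VvSUC11*-OE and *VvSUC12*-OE and in the T0 generation for *VvSUC27*-OE, so genotype, line and generation cannot be told apart. Whole fruits were ground with their developing seeds inside, and the 3 replicates of a group were independent biological samples. In such bulk samples, fewer cells of a type and less RNA per cell cannot be told apart.

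After fertilisation the tomato ovary passes through a phase of cell division and then grows mainly by cell expansion. The young fruit is green and carries chloroplasts, yet it depends on sucrose that arrives through the phloem and is split by sucrose synthases and invertases. Its outer epidermis lays down a cuticle of cutin and wax, and plant tissues that surround ovules often make small secreted cysteine-rich proteins such as defensins, protease inhibitors and lipid transfer proteins (LTPs).

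Abundance was given as FPKM, the number of fragments of a gene divided by the length of its transcript and by the number of mapped fragments of the library, so that levels can be set side by side between genes. The summed FPKM was 968907, 948388 and 979251 in WT replicates 1, 2 and 3, within the range of 948388 to 1025210 over the 12 libraries. The table also gave each gene a whole number headed count. Its sums were nearly equal in all libraries, 21031401, 21126291 and 21229356 in the WT, so it is called a scaled count here. A scaled count is not corrected for length. Its ratio to the FPKM and the library total, taken over the 3 WT replicates together, has the unit of a length. This ratio is called the implied length. It was not checked against transcript models, and it can differ between replicates of 1 gene. For gene13478, 14, 18 and 28 scaled counts stood beside 1.90, 6.33 and 65.5 FPKM. The median implied length was 1418 bases over the genes with a mean WT FPKM of at least 1. The study gives read totals per library, by which the last WT replicate was sequenced deeper than the other WT replicates, and those less deeply than any line library. The reads behind each gene's value are not in the table, so no counting interval is given, and all errors are SDs over the 3 replicates.

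Of the 22827 genes in the table, 17623 had a mean WT FPKM of at least 1. This number was 17208 when 1 FPKM was required in each replicate, 20512 at a mean of at least 0.1 FPKM and 13947 at a mean of at least 5 FPKM. A level of 100 FPKM was reached by 1734 genes and a level of 1000 FPKM by 75 genes. The table held 1153 genes newly assembled by the authors, and these took 1.93% of the summed WT FPKM. Across these 17623 genes the log2(FPKM + 1) levels of any pair of WT replicates had a Pearson correlation between 0.994 and 0.995. Between 212 and 232 genes differed by more than 1.5-fold in FPKM + 1 between a pair of WT replicates. This was 1.203 to 1.32% of the genes. The added 1 shrinks the fold changes of genes near 1 FPKM, so fewer of them are counted than by FPKM alone. The replicate spread narrowed with abundance, from a median coefficient of variation (CV) of 12.7% among the 3676 genes of 1 to 5 FPKM to 5.94% among the 6592 genes of 5 to 20 FPKM, 3.68% among the 5621 genes of 20 to 100 FPKM and 2.88% among the 1659 genes of 100 to 1000 FPKM. It was 3.42% among the 75 genes above 1000 FPKM.

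Markers of green tissue and of dividing cells were detected in the WT libraries, those of other fruit tissues in part. Of 44 genes of photosynthetic light harvesting and the photosystems listed as green tissue markers, 43 had a mean FPKM of at least 1, with a median of 365 FPKM and a summed share of 1.84% of the WT FPKM. Of 33 markers of dividing cells, 28 reached 1 FPKM and the median was 8.19 FPKM, led by Histone H4 (gene16500) at 910 FPKM, and cyclin-B1-2 (gene6232), a mitotic cyclin, was at 202, 197 and 207 FPKM. For the carpel and ovule, the MADS-box factor gene *TAGL1* (gene18532) was at 107, 107 and 113 FPKM, an *AGL11*-type gene (gene15601) at 96.1, 90.1 and 95.1 FPKM and *TAGL11* (gene26656) at 41.3, 37.998 and 36.9 FPKM, while the other 3 of 6 genes of this list, including *CRABS CLAW* (gene12746), were below 1 FPKM. The cuticle list had 50 of 75 genes at 1 FPKM or more (median 4.83 FPKM) and the phloem list 8 of 14 (median 5.64 FPKM). The xylem list had 10 of 29 (median 0.362 FPKM), and its sum was 88.7, 92.9 and 81.5 FPKM.

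Markers of other stages and organs were detected in part, and the median of the pollen list was above those of the cuticle, phloem and xylem lists. Of 39 genes of seed storage and maturation, 8 reached 1 FPKM and the median was 0.114 FPKM; their sum was 139, 136 and 132 FPKM, of which a Lea5-like late embryogenesis abundant gene (gene14568) gave 114, 112 and 108 FPKM. The next seed genes, an oleosin 18.2 kDa-like gene (gene8626) and the aquaporin gene TIP3-1 (gene24681), stood at 6.25 and 3.56 FPKM. Both genes annotated as the petal and stamen factor DEFICIENS were detected, *TDR6* (gene5746) at 71.0, 67.9 and 70.1 FPKM and *DEF* (gene11971) at 31.5, 33.4 and 31.9 FPKM. Of 25 genes with pollen or anther in their name, 15 reached 1 FPKM and the median was 7.83 FPKM, and the gene called pollen-specific protein C13 (gene11014) stood at 1654, 1698 and 1631 FPKM, the 34th of all genes. Among 20 ripening genes 12 reached 1 FPKM (median 3.41 FPKM), with *MADS-rin* (gene12740), a master regulator of ripening, at 31.1, 28.6 and 32.7 FPKM and the carotenoid gene *Psy1* (gene7166) at 28.2, 28.9 and 29.3 FPKM. These lists go by annotation words, and the part of other organs in any WT level was not tested.

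Much of the WT transcript pool came from few genes. The most abundant gene alone held 2.79% ± 0.152 (SD, n = 3) of the summed FPKM, the first 3 genes 7.14% ± 0.0482, the first 10 genes 10.6% ± 0.193 and the first 100 genes 24.0% ± 0.259. A share of 25% of the pool was reached with 112 genes, 50% with 695 genes, 75% with 2811 genes and 90% with 6878 genes. The replicates were close to each other, with 10.7, 10.4 and 10.7% for the first 10 genes and 24.1, 23.7 and 24.2% for the first 100. Genes of short implied length have few scaled counts for their FPKM. These same abundant genes took smaller shares of the scaled counts, 0.860% for the first, 1.73% for the first 3, 3.30% for the first 10 and 12.6% for the first 100.

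**Figure D1:**
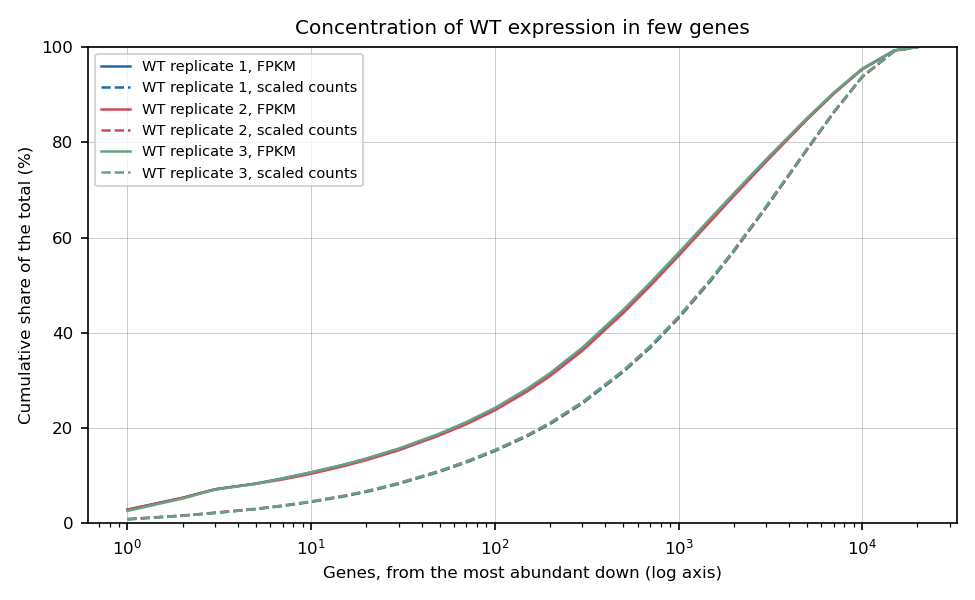
Cumulative share (%) of the WT transcript pool against the number of genes taken from the most abundant down (log axis), for each WT replicate by FPKM (solid lines) and by scaled counts (dashed lines, each unit in its own order). The 3 replicates lie on each other, and the 100 most abundant genes hold 24.0% by FPKM and 15.3% by scaled counts.

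The abundant genes also had short implied lengths. The FPKM is the divisor in the implied length, so a ranking by FPKM favours genes with a short one, and the measures are not independent. The median implied length was 513 bases among the 100 most abundant genes, against 1418 bases among all genes of at least 1 FPKM. An implied length under 300 bases was found for 19 of the 100 and 3 of the first 10 genes, against 2.70% (476 genes) of all genes of at least 1 FPKM. The order by scaled count shared 5 of its first 10 genes, 16 of its first 30 and 54 of its first 100 with the order by FPKM.

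The genes of 3 small proteins stood apart at the head of the WT fruit. A defensin-like protein gene (gene16988), of a family of antimicrobial cysteine-rich peptides, was the most abundant at 28153, 26920.5 and 25619 FPKM in replicates 1, 2 and 3. The fruit-specific protein gene gene18098 followed at 23987, 24076 and 25577 FPKM, and the metallocarboxypeptidase inhibitor gene gene17076, whose product blocks a class of digestive enzymes, at 17224, 17020 and 18161 FPKM. Their ranges over the replicates did not overlap with each other or with the gene ranked 4th, which was more than 3-fold lower, so their order held in each replicate. The gap between gene16988 and gene18098 was narrow in replicate 3. By scaled count gene17076, with an implied length of 161 bases, ranked 9th. The highest level of gene16988 was in replicate 1 and that of both others in replicate 3.

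The genes ranked 4 to 12 overlapped in part. Both genes of the induced stolen tip protein TUB8 type, gene26290 at 5467, 5454 and 5923 FPKM and gene14016 at 4798, 4354 and 5086 FPKM, were among the first 10. The metallothionein-like gene gene21753, of a family of small metal-binding proteins, reached 5610, 5298 and 5792 FPKM. The gene annotated as indole-3-acetic acid-induced protein ARG2 (gene22835), here called *ARG2*, had 4621, 4354 and 5369 FPKM. Its response to auxin was not tested. The range of gene26290 overlapped with that of gene21753, and the range of *ARG2* with that of gene14016, so these pairs have no firm order. The second metallocarboxypeptidase inhibitor gene, gene17077, ranked sixth at 6252, 3882 and 5986 FPKM with a CV of 24.2%. Its implied length was 72.8 bases, and its scaled counts of 7778, 8412 and 8603 had their lowest value in replicate 1, while the FPKM was lowest in replicate 2. An uncharacterized gene, gene17952, with an implied length of 1154 bases, was steadier at 3884, 3894 and 4045 FPKM. The LTP genes gene24836 (3756, 3246 and 3517 FPKM) and gene24837 (3626, 3251 and 3439 FPKM), whose products carry lipids to the cell surface, and the snakin-1-like gene gene11701 (3279, 3429 and 3318 FPKM), an antimicrobial peptide gene, had overlapping ranges.

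A sucrose synthase gene, gene28005, ranked 13th with 2985, 2960 and 3023 FPKM. Its CV was 1.06%, and its range overlapped neither with the gene before nor with the gene after it. By scaled count, with its implied length of 2559 bases, it was the second gene of the WT fruit and held 0.765% of the total, between gene16988 with 0.860% and gene18098 with 0.589%. The next genes by scaled count were gene17952, gene26290, the alpha tubulin gene gene19278 and the cellulose synthase-like G2 gene gene17950.

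The genes ranked 14 to 30 covered the cytoskeleton, cell wall, lipid transfer, protein folding, light harvesting and water transport. The alpha tubulin genes, whose products build microtubules, stood at 2745, 2718 and 2856 FPKM (gene19278) and at 2245, 2192 and 2283 FPKM (gene11598). The proline-rich protein gene gene28328 had 2597, 2934 and 2682 FPKM and a further proline rich protein gene, gene17920, had 2153, 2067 and 2096 FPKM. The ranges of neither pair overlapped. The putative LTP genes of the DIR1 type were gene3476 at 2601, 2562 and 2698 FPKM and gene18943 at 1899, 1850 and 2026 FPKM; the latter had an implied length of 29.1 bases and 1012, 1363 and 1170 scaled counts. The remaining genes of this range included *CyP* (gene3640), a peptidyl-prolyl cis-trans isomerase that assists protein folding, at 2612 ± 106 FPKM (SD, n = 3). A mini zinc finger protein gene (gene6067) was at 2418 ± 31.3 FPKM, a cysteine protease inhibitor gene (gene8430) at 2248 ± 48.9 FPKM and a chlorophyll a-b binding protein gene (gene6772) at 1989 ± 99.5 FPKM. The aquaporin gene gene16387 was at 1974 ± 86.8 FPKM, a chitinase-like gene (gene23454) at 1850 ± 22.8 FPKM and a glyceraldehyde-3-phosphate dehydrogenase gene of glycolysis (gene12964) at 1849 ± 15.6 FPKM. The yfe37 protein gene (gene1660), a putative phosphatidylglycerol transfer protein gene (gene193), the uncharacterized gene12807 and the gene of the Hop-interacting protein THI101 (gene141) filled the remaining places between 2652 and 1827 FPKM. Of the 30 genes, 20 had a range that overlapped with the next rank, and 20 had their lowest level in replicate 2, the library with the lowest summed FPKM.

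**Figure D2:**
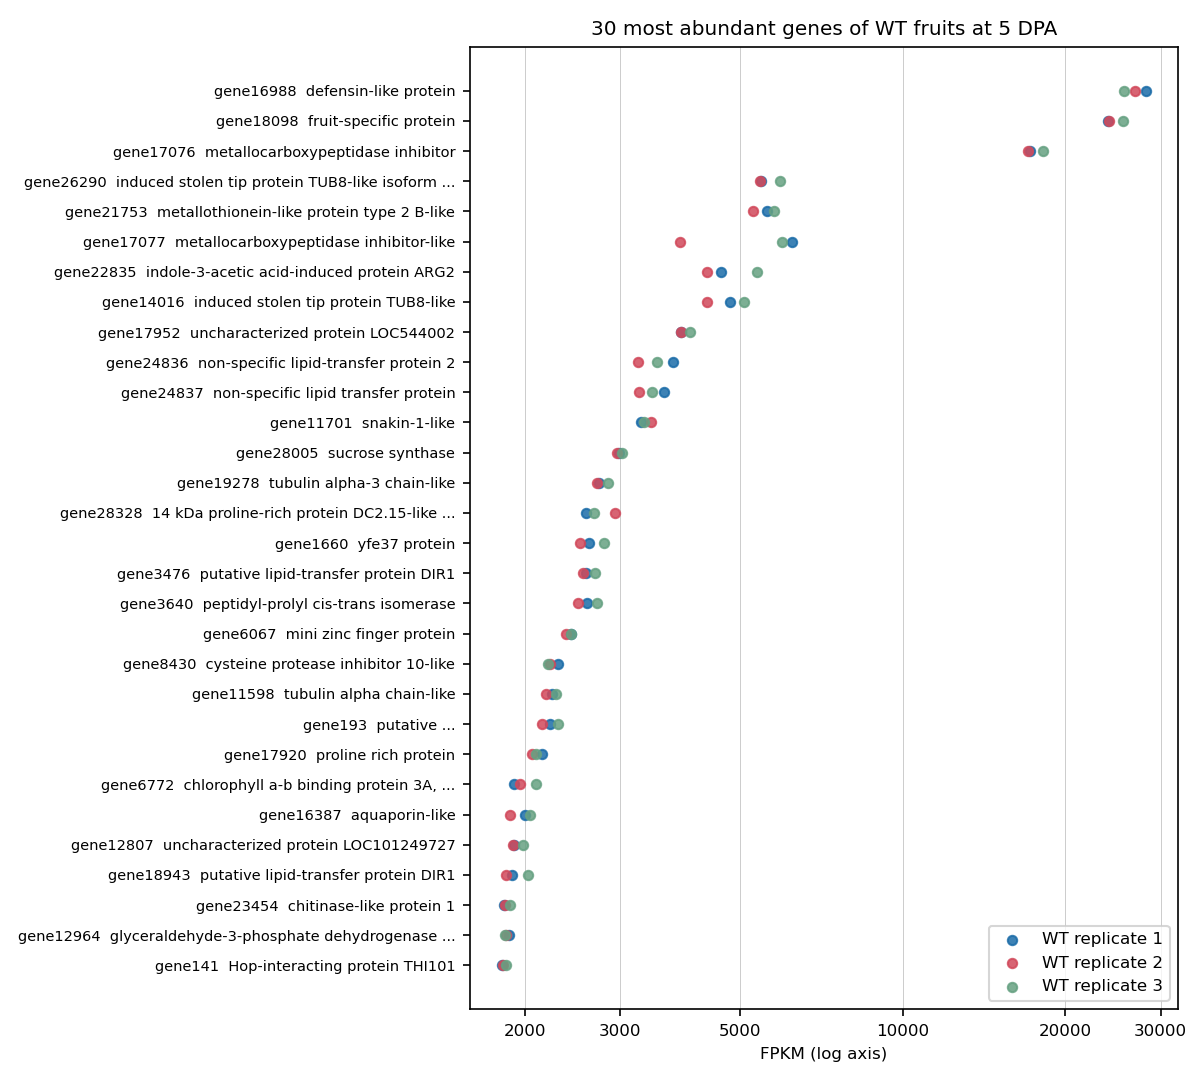
FPKM (log axis) of the 30 most abundant genes of WT fruits in each of the 3 WT replicates, ordered by their mean. The first 3 genes lie between 17020 and 28153 FPKM and apart from all others, gene17077 spreads from 3882 to 6252 FPKM, and most neighbours from rank 14 on overlap.

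Among the 100 most abundant genes, 43 belonged to one of the 50 gene families listed from the annotation. These were 8 cytosolic ribosomal protein genes, 7 LTP genes, 4 genes each of photosystem subunits and protease inhibitors, 3 aquaporin genes, and 1 or 2 genes each of 11 other families. No gene of a listed transcription factor or hormone family was among the 100. The median CV of the 100 genes was 3.33%, and 4 of them exceeded 15%: gene17077, a Sec61 subunit gene (gene8490) and 2 of the 3 newly assembled genes of this list. By their number along the chromosomes, 12 of the 97 listed reference genes had another of the 100 within 5 gene numbers, such as the LTP genes gene24835, gene24836, gene24837 and gene24840, and the inhibitor genes gene17076 and gene17077. Reads of such neighbouring copies may have been divided between them by the counting, so the level of each copy is less certain than their sum.

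The 3 newly assembled genes among the 100 had very short implied lengths. Solanum_lycopersicum_newGene_1460, ranked 70th at 1181, 998 and 996 FPKM, had 37, 56 and 34 scaled counts and an implied length of 1.89 bases. Solanum_lycopersicum_newGene_665, ranked 74th at 1319, 787 and 934 FPKM, had 21, 23 and 16 scaled counts, and Solanum_lycopersicum_newGene_413, ranked 51st at 1306, 1063 and 1479 FPKM, had 846, 833 and 797. The implied length of Solanum_lycopersicum_newGene_665 was 0.934 bases and that of Solanum_lycopersicum_newGene_413 was 30.5 bases.

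By eggNOG functional class and FPKM, the largest share of a class with a named function was that of translation. The class of translation and ribosomes, with 681 genes, took 11.4% ± 0.0831 (SD, n = 3) of the summed FPKM. Posttranslational modification, protein turnover and chaperones took 8.57% ± 0.0146, carbohydrate transport and metabolism 5.23% ± 0.0302, energy production 4.11% ± 0.0178, signal transduction 3.90% ± 0.0553, transcription 3.49% ± 0.0152 and intracellular trafficking and secretion 3.36% ± 0.00610. The replicate ranges of neighbours in this order did not overlap. The order depended on the unit, since by scaled counts posttranslational modification, protein turnover and chaperones (10.5%) exceeded translation (7.68%), and signal transduction (5.46%) and transcription (4.68%) exceeded energy production (4.55%). Genes with only a general prediction held 18.8% and genes of unknown function 15.2%. The 1140 genes without any class held 8.61% ± 0.144 by FPKM but 2.61% of the scaled counts, and 2.97% by FPKM once genes of implied length under 300 bases were left out.

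**Figure D3:**
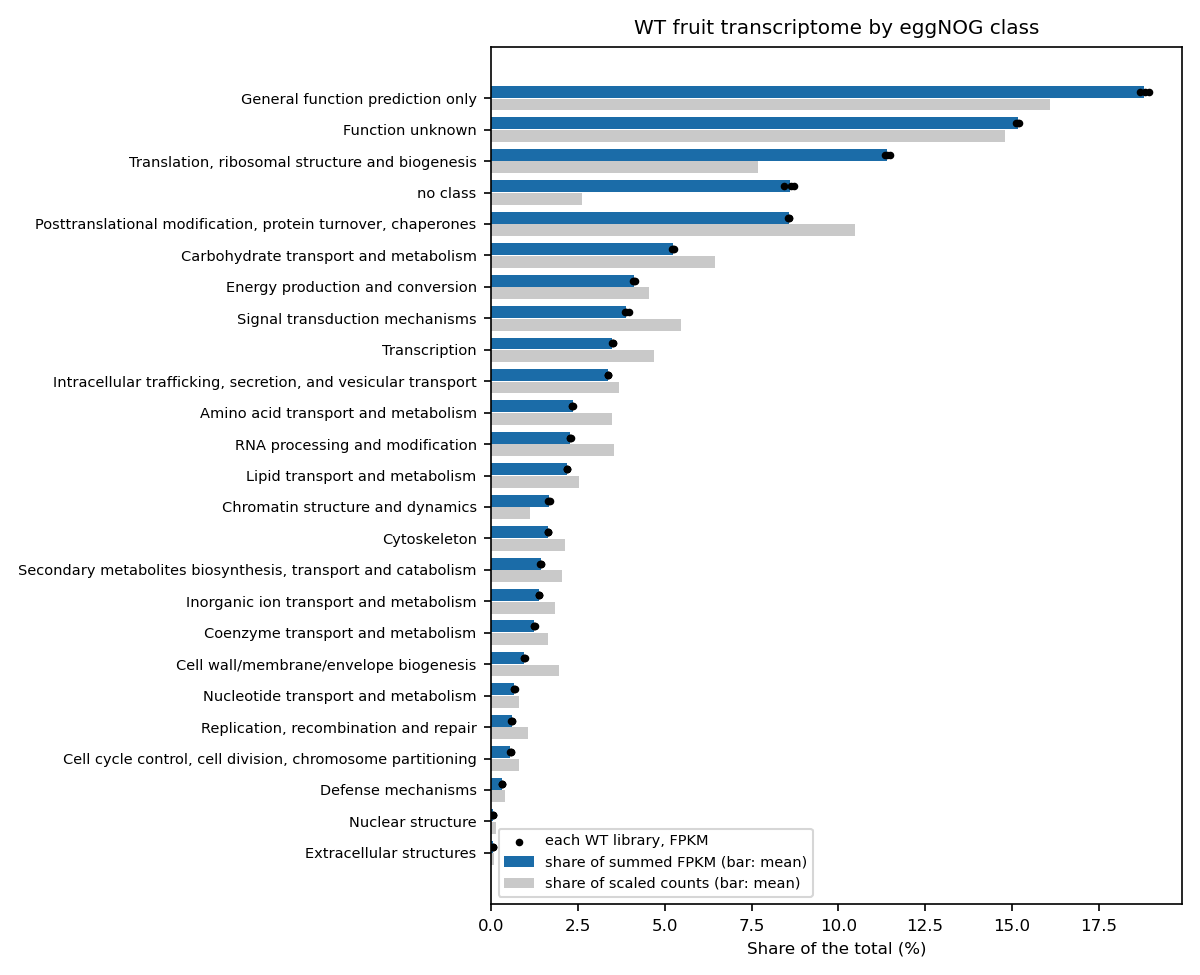
Share (%) of the summed FPKM (blue bars, mean of the 3 WT replicates; points, each replicate) and of the scaled counts (grey bars, mean) by eggNOG class. Translation takes 11.4% by FPKM and 7.68% by scaled counts, and genes without a class 8.61% and 2.61%.

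Other classes held less. Chromatin structure took 1.66%, the cytoskeleton 1.65%, secondary metabolism 1.42%, cell wall and membrane biogenesis 0.950%, replication and repair 0.593% and cell cycle control 0.556% of the WT FPKM, each with an SD of at most 0.0196 percentage points. Lipid transport and metabolism took 2.18% and inorganic ion transport 1.37%. Nuclear structure (0.0556%) and extracellular structures (0.0525%) were smaller again. The class of defence mechanisms took 0.308%, less than the 2.79% of the defensin-like gene gene16988 alone, which was thus not filed under it.

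By KEGG pathway, 4590 genes with at least 1 pathway held 36.1% ± 0.129 (SD, n = 3) of the WT FPKM. The ribosome pathway held 9.42%, carbon metabolism 2.91%, amino acid biosynthesis 2.49%, protein processing in the endoplasmic reticulum 2.10% and oxidative phosphorylation 2.03%. Photosynthesis held 1.82%, carbon fixation 1.65%, glycolysis 1.49%, starch and sucrose metabolism 1.204% and the antenna proteins 1.16%. Single genes weighed differently in them, since gene28005 made up 25.7% of the starch and sucrose pathway, the glyceraldehyde-3-phosphate dehydrogenase gene gene12964 made up 12.8% of glycolysis and the photosystem II gene *PSBR* (gene19056) 6.77% of photosynthesis. Pathways share genes, so these shares do not add up. Plant hormone signal transduction held 0.604%, DNA replication 0.122%, flavonoid biosynthesis 0.0848% and carotenoid biosynthesis 0.0554%.

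The 50 families held 2417 genes and 27.9% of the WT FPKM. In 47 of them the replicate range of the leading gene did not overlap with the second gene, the exceptions being the LTPs, the wax and cutin enzymes and the ERF and AP2 factors. The leading gene held a median of 30.2% of its family, more than 50% in 7 families, and the first 3 genes together held more than 50% in 33 families. In 6 families every listed gene had a mean of at least 1 FPKM.

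**Figure D4:**
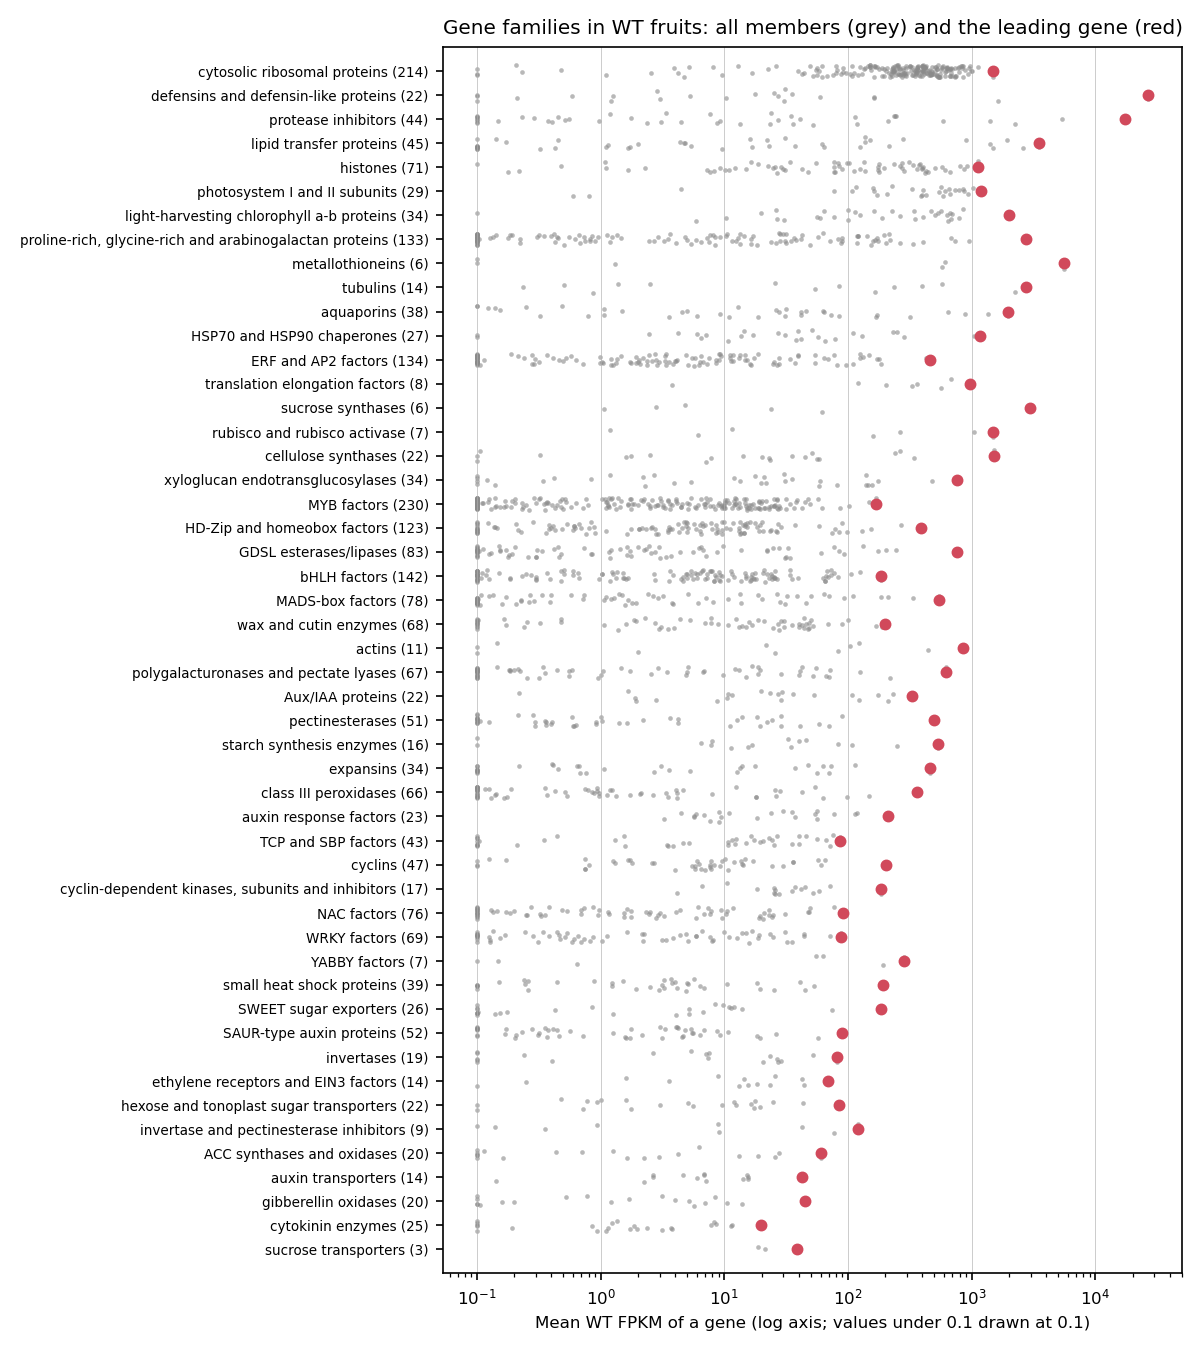
Mean WT FPKM (log axis) of each gene of 50 families (grey points) and of the leading gene of the family (red), with the number of genes in parentheses; families are ordered by their summed share, and values under 0.1 FPKM are drawn at 0.1. The leading defensin gene lies at 26898 FPKM and the leading sucrose synthase gene at 2989 FPKM, far from the rest of their families, while the cytosolic ribosomal protein genes crowd together up to 1494 FPKM.

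Genes of cytosolic ribosomal proteins were many, and none held a large part of their family. The 214 cytosolic ribosomal protein genes, of which 208 reached 1 FPKM, held 7.88% ± 0.0658 (SD, n = 3) of the WT pool, and their leading gene, for the small subunit protein S29 (gene16251), held only 1.96% of that at 1515, 1437 and 1528 FPKM. The 8 translation elongation factor genes held 0.335%, led by elongation factor 1-alpha (gene14265), which brings aminoacyl-tRNA to the ribosome, with 29.9% of the family at 980, 954 and 964 FPKM, ahead of elongation factor 1-beta 2 (gene27581) at 684 FPKM. All 8 were detected, the lowest of them, an elongation factor 1-alpha-like gene (gene27437), at 3.78 FPKM.

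Genes of dividing cells and of the cytoskeleton came next. The 71 histone genes held 1.48% ± 0.0218, and their leading genes were gene26089, filed as a histone by its other annotations, at 1134, 1091 and 1149 FPKM, Histone H4 (gene16500) at 916, 873 and 941 FPKM and histone H2A.1 (gene2619) at 900, 810 and 883 FPKM. The ranges of the last 2 overlapped. The 47 cyclin genes held 0.0765%, with cyclin-B1-2 at 27.3% of that, more than 3-fold above cyclin D3.1 (gene6521) at 64.7 ± 2.66 FPKM. The implied length of cyclin-B1-2 was 393 bases, and by scaled counts gene24939 led the family. The 17 cyclin-dependent kinase, subunit and inhibitor genes, all detected, held 0.0721% and were led by regulatory subunit 1 (gene27218) at 185 ± 2.58 FPKM. Among 14 tubulin genes (0.679%) the alpha tubulin genes gene19278 and gene11598 made up 42.3 and 34.1%, and the next, a beta tubulin gene (gene12020), stood at 577 ± 9.58 FPKM. Among 11 actin genes (0.171%) *actin-7* (gene7814) made up 51.3% at 844, 848 and 843 FPKM, with a spread below 1%.

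Photosynthesis genes reached high ranks in the WT fruit. The 29 photosystem I and II genes held 1.37% ± 0.0348 and the 34 light-harvesting genes 1.22% ± 0.0385 (SD, n = 3). *PSBR* (gene19056) led the former at 1167, 1157 and 1242 FPKM, ahead of photosystem I subunit II (gene15253) at 1026 FPKM and the oxygen-evolving protein gene *PsbQ* (gene5320) at 932 FPKM. In the light-harvesting family gene6772, at 1907, 1960 and 2100 FPKM, was more than 2-fold above the second gene, gene23590, at 850 FPKM. Of the 7 rubisco and rubisco activase genes (0.306%), the small chain genes gene7295 at 1409, 1442 and 1580 FPKM and *rbcS1* (gene4315) at 990, 1029 and 1101.96 FPKM encode subunits of the enzyme that fixes carbon dioxide. Each of these 3 families had its highest share in replicate 3.

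Genes of water and sugar supply differed widely in level. Of 38 aquaporin genes (0.635%), 29 were detected, and gene16387 at 2003, 1876 and 2042 FPKM was followed by the plasma membrane genes *PIP1-5* (gene21087) at 1359 ± 33.0 FPKM and *PIP1-3* (gene29161) at 892 ± 5.01 FPKM. Sucrose synthase, which splits sucrose into fructose and UDP-glucose, had the largest lead of 1 gene among the 50 families, where gene28005 made up 97.0% of the 6 genes, and the second, *sus3* (gene17882), had 61.7, 59.3 and 62.3 FPKM. *SUS4* (gene23458) had 24.0 ± 0.901 FPKM. The 19 invertase genes, which split sucrose into glucose and fructose, summed to 0.0302% of the pool, led by the neutral invertase *CINV2* type gene12016 at 81.6, 79.7 and 83.5 FPKM and the vacuolar acid invertase gene *AI* (gene8037) at 52.3, 52.3 and 53.3 FPKM. The sucrose synthase family was thus 0.319% ± 0.00200 against 0.0302% ± 0.000109 for the invertases, and the replicate ranges were far apart.

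Transporters of sugar were low by comparison. All 3 sucrose transporter genes were detected, *SlSUT1* (gene26425), the phloem-loading type, at 39.0, 39.6 and 37.8 FPKM, *SlSUT4* (gene11593) at 21.4, 20.8 and 21.3 FPKM and *SlSUT2* (gene12376) at 19.8, 17.2 and 19.1 FPKM. Their order held in each replicate, and the gap between *SlSUT4* and *SlSUT2* was narrow. They ranked 4213th, 7063th and 7686th of all genes, and 81.5% of the genes in the table lay below *SlSUT1*. Among 26 SWEET genes, which let sugars leave cells, the SWEET1-like gene gene11186 at 186, 183 and 183 FPKM made up 52.7%, followed by a SWEET4-like gene (gene21240) at 73.7 ± 1.82 FPKM and a SWEET14-like gene (gene8333) at 14.0 ± 0.400 FPKM. The 22 hexose and tonoplast sugar transporter genes (0.0289%) were led by an ERD6-like gene (gene2529) at 85.02 ± 0.757 FPKM. An invertase inhibitor gene (gene29688) led the 9 invertase and pectinesterase inhibitors (0.0268%) at 120 ± 2.78 FPKM. The 16 starch synthesis genes (0.124%) were led by the small subunit of ADP-glucose pyrophosphorylase (gene18550), which supplies the glucosyl donor of starch, at 537, 535 and 542 FPKM, with granule-bound starch synthase *GBSS1* (gene21290) second at 247 ± 8.18 FPKM.

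The genes that use the products of sucrose cleavage were also high in the WT. Fructokinase-2 (gene16225), which phosphorylates fructose, was at 1123, 1074 and 1170 FPKM, and the glycolytic genes of enolase (gene21578), triosephosphate isomerase (gene10106) and phosphoglycerate kinase (gene19086) were at 1202.3, 989 and 872 FPKM on average. These genes lie within the 100 most abundant but below rank 30, and were chosen after their values were seen.

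The families listed as cell wall by their annotation covered wall synthesis and wall loosening. A wall role of single members, such as the cellulose synthase-like gene gene17950, was not tested. The cellulose synthase and cellulose synthase-like genes (22 genes, 0.281%) were led by the G2 type gene gene17950 at 1485, 1548 and 1532 FPKM, which made up 56.1%, ahead of the catalytic subunit genes 1 (gene19898) at 344 ± 6.45 FPKM and 3 (gene1746) at 262 ± 5.30 FPKM. Of 34 xyloglucan endotransglucosylase genes (0.250%), which cut and rejoin wall xyloglucan, *XTH1* (gene2634) led at 764, 753 and 760 FPKM, followed by *XTH16* (gene18268) at 481 ± 11.01 FPKM. Of 34 expansin genes (0.104%), which loosen walls, 17 were detected and gene6076 at 465, 457 and 472 FPKM made up 46.2%. Pectin-modifying genes were led by a pectinesterase gene (gene14573) at 501, 502 and 496 FPKM, close to *PMEU1* (gene9605) at 473, 468 and 473 FPKM, and by a pectate lyase gene (gene12929) at 617, 636 and 613 FPKM. The pectinesterases held 0.149% and the polygalacturonases and pectate lyases 0.166%. The 133 proline-rich, glycine-rich and arabinogalactan protein genes held 1.01% ± 0.0245, of which gene28328 made up 28.2%.

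The cuticle families were led by small lipid carriers. The 45 LTP genes held 1.72% ± 0.0654 of the pool, and gene24836 and gene24837 made up 21.1 and 20.7% with no order between them. The 83 GDSL esterase/lipase genes (0.226%) were led by gene25806 at 812, 747 and 740 FPKM, more than 3-fold above the second gene, gene28396, at 245 ± 8.08 FPKM. The 68 wax and cutin genes (0.179%) were flat at the top, with the cytochrome P450 gene *CYP77A19* (gene14148) at 212, 193 and 196 FPKM, 3-ketoacyl-CoA synthase 6 (gene12563), which elongates fatty acids, at 200, 181 and 181.9 FPKM and an ECERIFERUM 1-like wax gene (gene1838) at 175, 165 and 162 FPKM. Replicate 1 was the highest in each of these 3 wax and cutin genes, and the ranges of the first 2 overlapped.

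In both defence families 1 gene held more than all others together. The 22 defensin genes held 3.02% ± 0.150 of the WT pool, 92.4% of it from gene16988, and the second gene, gene17121, was at 1586, 1594 and 1713 FPKM, followed by gene17122 at 163 ± 4.28 FPKM. The 44 protease inhibitor genes held 2.95% ± 0.145, with 61.2% from gene17076, 18.8% from gene17077 and 7.88% from gene8430. Without genes of implied length under 300 bases, which removes gene17076 and gene17077, the protease inhibitors held 0.480%.

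Among redox and stress families the 6 metallothionein genes held 0.699% ± 0.0124, of which gene21753 made up 82.5%, and gene16515 and gene11145 followed at 606 ± 8.08 and 572 ± 34.4 FPKM. The 27 HSP70 and HSP90 genes held 0.388%, led by a heat shock cognate 70 gene (gene21737) at 1168, 1169 and 1179 FPKM and *HSC80* (gene19010) at 1046, 1052 and 1059 FPKM, chaperones that fold proteins also without heat. Both had a CV below 1%. The 39 small heat shock protein genes held 0.0495%, 40.0% of it from *Hsp20.0* (gene16555) at 195, 179 and 200 FPKM. The 66 class III peroxidase genes held 0.0983%, led by a peroxidase 42-like gene (gene5374) at 358 ± 13.9 FPKM.

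Genes of the listed transcription factor groups were numerous and individually low. The mini zinc finger protein gene (gene6067, 2418 FPKM) was in none of these groups. The 902 genes of 9 listed factor groups took 1.49% ± 0.0117 (SD, n = 3) of the WT pool, and 560 of them reached 1 FPKM. Their median was 9.61 FPKM, against 15.2 FPKM over all detected genes, and 27 reached 100 FPKM. The highest of them was the MADS-box gene *TM29* (gene6177), a SEPALLATA-type floral and fruit regulator, at 555.01, 545 and 530 FPKM. Its range lay above that of the second, an ERF4-like gene (gene18340) at 464, 444 and 476 FPKM, which overlapped with *ERF6* (gene1195) at 445, 417 and 429 FPKM.

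Within the factor groups, the order was as follows. Of 78 MADS-box genes (0.208%), 40 were detected, and *TM29* was followed by an AGL9 homolog (gene13063) at 337 ± 12.8 FPKM and an AGL8 homolog (gene8858) at 211 ± 6.47 FPKM. Of 123 homeobox genes (0.228%) the homeobox protein 2-like gene gene5112 led at 392 ± 11.3 FPKM and ATHB-6 (gene26093) followed at 268 ± 4.89 FPKM. The 7 YABBY genes (0.0619%), which specify the lower side of lateral organs, were led by YABBY 2 (gene16302) at 282, 284 and 291 FPKM and YABBY 5 (gene17163) at 193 ± 9.69 FPKM, and 3 of them were below 1 FPKM. The 230 MYB genes (0.233%) were led by a MYB44-like gene (gene6515) at 169 ± 2.91 FPKM, the 142 bHLH genes (0.213%) by a bHLH148-like gene (gene1090) at 187 ± 2.45 FPKM and the 134 ERF and AP2 genes (0.337%) by gene18340, given above. The 76 NAC genes (0.0684%) were led by gene7871 at 91.8 ± 1.61 FPKM, the 69 WRKY genes (0.0637%) by WRKY 11 (gene19222) at 88.6 ± 1.01 FPKM and the 43 TCP and SBP genes (0.0817%) by the SBP-like gene 1 (gene1365) at 86.1 ± 1.21 FPKM.

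Of the hormone families, Aux/IAA had the largest share by FPKM, and by scaled counts the auxin response factors (0.225%) exceeded it (0.135%). The 22 Aux/IAA genes, repressors of auxin response, held 0.150% and 21 of them were detected, led by gene11584 (symbol *IAA9* in the table) at 330, 321 and 330 FPKM, ahead of gene2419 at 233 ± 0.304 FPKM and *IAA15* (gene9387) at 212 ± 6.69 FPKM. All 23 auxin response factor genes were detected and held 0.0942%, with factor 4 (gene27387) at 214, 207 and 211 FPKM above factor 6 (gene30192) at 119 ± 3.69 FPKM and factor 8-1 (gene7179) at 113 ± 1.55 FPKM. The 14 auxin transporter genes held 0.0147%, led by the efflux gene *SlPIN4* (gene12454) at 43.5, 41.5 and 42.5 FPKM, more than 2-fold above *SlPIN1* (gene9219) at 15.7 ± 1.48 FPKM. The 52 SAUR-type genes held 0.0333% and 28 of them were detected.

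The other hormone families were low. Of 20 gibberellin oxidase genes (0.0111%), 11 were detected, and gibberellin 2-beta-dioxygenase 3 (gene15086), of the group that inactivates gibberellins, stood at 43.6, 46.7 and 43.8 FPKM, above gibberellin 20-oxidase-3 (gene27594), a gibberellin synthesis enzyme, at 13.9, 15.2 and 13.0 FPKM. The 20 ACC synthase and oxidase genes, which make ethylene, held 0.0171%, led by *ACO6* (gene4138) at 61.1, 61.2 and 58.1 FPKM. The 14 ethylene receptor and EIN3-type genes held 0.0291%, led by *EIL1* (gene16282) at 68.0, 66.1 and 72.2 FPKM. The 25 cytokinin enzyme genes held 0.00959%, led by a riboside phosphoribohydrolase gene (gene20031), which releases active cytokinins, at 21.5, 19.6 and 18.0 FPKM.

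Few abundant genes varied between the WT replicates. Of the 7355 genes with a mean of at least 20 FPKM, 38 had a ratio of the highest to the lowest replicate above 1.5, 8 had a ratio above 2 and 2 were listed at 0 in 1 replicate. The median CV of the 7355 genes was 3.46%. Most of the 10 most variable genes were newly assembled or had a short implied length, such as gene13478 at 1.90, 6.33 and 65.5 FPKM from 14, 18 and 28 scaled counts. Of those with an implied length above 300 bases, the uncharacterized gene14304 had 38.05, 18.0 and 37.6 FPKM from 643, 310 and 644 scaled counts, and the dehydration-responsive RD22-like gene gene4238 had 35.8, 54.7 and 26.3 FPKM from 590, 921 and 438 scaled counts. Both stood apart in replicate 2, in opposite directions, and in both units.

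To see where the WT differed from the overexpressing lines in its abundant genes, the 100 most abundant WT genes were read in a limma fit of log2(FPKM + 1) over all genes. Genes with an FDR (Benjamini-Hochberg) below 0.01 that also differed by more than 1 on the log2 scale were called, and log2 fold changes are given as line over WT. The 3 comparisons share the WT libraries. Choosing genes by their WT level also favours genes that are lower in a line, so the direction of the calls among the 100 is in part set by that choice. With 100 genes chosen by the mean of both groups instead, 26, 10 and 14 genes were called in the comparisons with *VvSUC11*-OE, with *VvSUC12*-OE and with *VvSUC27*-OE fruits.

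In *VvSUC11*-OE fruits 19 of the 100 genes were called, where 10.5% of all 18296 genes tested were called; 4 were higher, where 5.55% of all genes were, and 15 were lower, where 4.97% were. In *VvSUC12*-OE fruits 9 were called against 5.63% of 18061 genes, 1 higher (2.22% of all) and 8 lower (3.41%). In *VvSUC27*-OE fruits 11 were called against 7.41% of 18005 genes, 3 higher (2.33%) and 8 lower (5.08%). The median log2 fold change of the 100 genes was -0.12, 0.01 and -0.06 against 0.00, 0.03 and 0.01 for all genes tested. In all, 24 of the 100 genes were called in at least 1 line and 76 in none, where 12.9% of the 17807 genes tested in all 3 lines were called in at least 1. The lines share the WT libraries, so these calls are not independent of each other.

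Of the 3 genes at the head of the WT, each had its own pattern. The defensin-like gene gene16988, at 25619 to 28153 FPKM in the WT, had 26870 to 29795 FPKM in *VvSUC11*-OE and 26701 to 28022 FPKM in *VvSUC12*-OE fruits, which overlapped with the WT, and 53121 to 54136 FPKM in *VvSUC27*-OE fruits. The last difference was 1.00 ± 0.06 (log2, SE), just under the fold limit (limma FDR 8.75e-07). The inhibitor gene gene17076, at 17020 to 18161 FPKM in the WT, fell to 4010 to 4694 FPKM in *VvSUC11*-OE fruits, a log2 fold change of -1.998 ± 0.07 (limma FDR 1.72e-08). In the other lines gene17076 had 16720 to 17366 FPKM (*VvSUC12*-OE) and 26968 to 29165 FPKM (*VvSUC27*-OE) and was not called. The fruit-specific gene gene18098, at 23987 to 25577 FPKM in the WT, was not called in any line, with 39725 to 42228, 28342 to 29418 and 21248 to 22579 FPKM in the 3 lines, and was the most abundant gene of *VvSUC11*-OE and *VvSUC12*-OE fruits.

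In *VvSUC11*-OE fruits the LTP gene gene24835 rose from 1307 to 1540 FPKM in the WT to 5674 to 6722 FPKM, by 2.12 ± 0.08 (log2, SE; limma FDR 2.83e-08), while its neighbour gene24840 fell from 1406 to 1581 FPKM to 177 to 215 FPKM, by 2.90 ± 0.07 on the log2 scale (limma FDR 2.86e-09). The abscisic stress-ripening gene gene11281 rose by 1.47 ± 0.04 (FDR 9.06e-09) and *ARG2* (gene22835) by 1.23 ± 0.08 (FDR 1.15e-06). Both LTP genes, which are neighbours by gene number, moved in opposite directions in *VvSUC11*-OE fruits.

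*ARG2* (gene22835) was called in each line, and not in the same direction. Its WT level of 4354 to 5369 FPKM stood against 10852 to 11849 FPKM in *VvSUC11*-OE, 2342 to 2420 FPKM in *VvSUC12*-OE and 990 to 1113 FPKM in *VvSUC27*-OE fruits. It was lower in *VvSUC12*-OE fruits by -1.004 ± 0.07 (log2, SE; limma FDR 3.86e-06), just past the fold limit, and in *VvSUC27*-OE fruits by -2.19 ± 0.07 (FDR 1.21e-08). None of these groups overlapped with the WT.

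In *VvSUC12*-OE fruits the defensin gene gene17121 rose from 1586 to 1713 FPKM in the WT to 8020 to 8403 FPKM, by 2.32 ± 0.04 (log2, SE; limma FDR 1.39e-09), and the MLP-like protein 423 gene (gene12246) fell by 1.59 ± 0.05 on the log2 scale (FDR 2.39e-08). In *VvSUC27*-OE fruits gene17121 rose to 6093 to 7058 FPKM, by 2.02 ± 0.06 (FDR 3.82e-09), and the wound-induced proteinase inhibitor gene gene23054 from 1274 to 1589 FPKM in the WT to 8925 to 10190 FPKM, by 2.77 ± 0.08 (FDR 4.72e-09). The uncharacterized gene17952 rose there by 1.01 ± 0.04 (FDR 3.68e-08), and it was no longer called, at 0.93, when libraries were brought to equal summed FPKM, nor without WT replicate 1 (1.00) or *VvSUC27*-OE replicate 1 (0.99). An alcohol dehydrogenase gene (gene15301) fell by 1.29 ± 0.03 on the log2 scale (FDR 9.81e-10).

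Among genes of short implied length the unit mattered. The inhibitor gene gene17077 was called lower in *VvSUC11*-OE (-3.53 ± 0.24, limma FDR 1.70e-06), *VvSUC12*-OE (-2.47 ± 0.15, FDR 2.56e-06) and *VvSUC27*-OE fruits (-1.02 ± 0.23, FDR 0.00479). By scaled counts the *VvSUC12*-OE difference was -0.61 and was not called. Solanum_lycopersicum_newGene_1460, with at most 56 scaled counts in the WT, was listed at 0 in all 9 line libraries, and no fold is given; it is 1 of the lower genes in each count above.

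**Figure D5:**
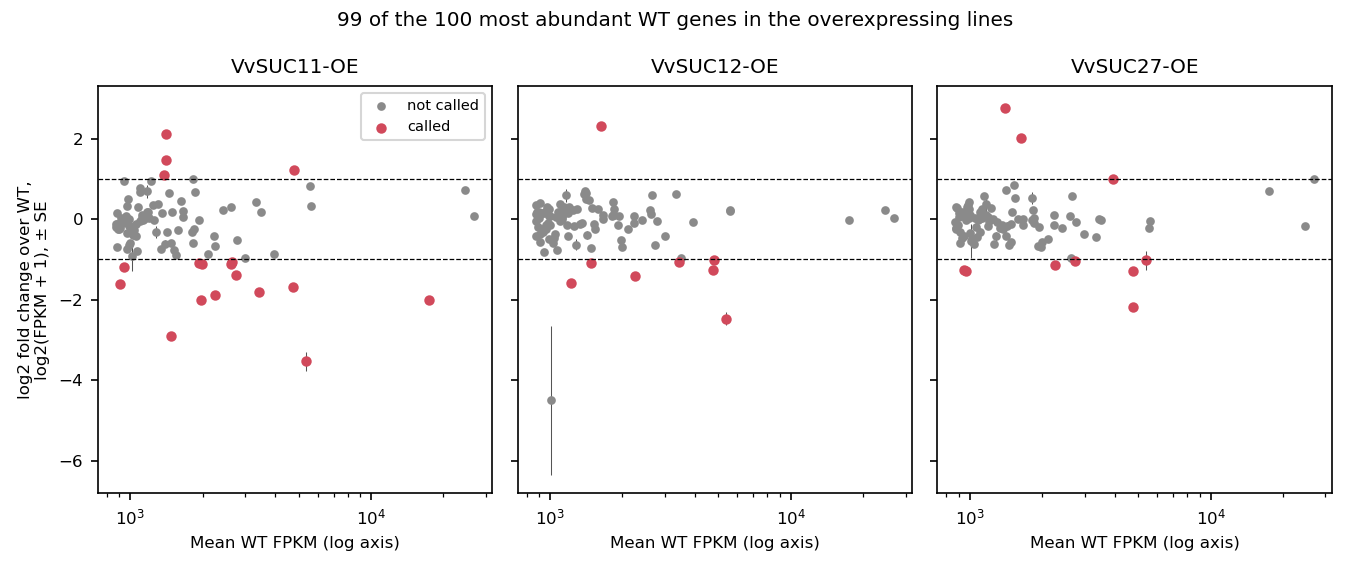
log2 fold change (± SE) of 99 of the 100 most abundant WT genes in each overexpressing line over the WT against their mean WT FPKM (log axis), without Solanum_lycopersicum_newGene_1460, which is listed at 0 in the lines; red points are called, dashed lines mark the fold limit. Of the genes drawn, 4, 1 and 3 are called higher in the 3 lines, and the grey point far below the others in the middle panel, at -4.50, is Solanum_lycopersicum_newGene_665.

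The head of the WT list was in part shared by the lines. Of the first 10 WT genes, 7 were also among the first 10 in the *VvSUC11*-OE line, 6 in the *VvSUC12*-OE line and 7 in the *VvSUC27*-OE line, and of the first 100 WT genes 69, 78 and 78 were among the first 100. For the families summed into 12 roles, the replicate ranges of WT and line did not overlap in 33 of 36 comparisons, each with an exact two-sided permutation p of 0.1, the smallest that 3 against 3 libraries allow (0.109 after Benjamini-Hochberg adjustment over the 36). Ranges without overlap were usual at every level, as they were found for 67.8% of all genes tested in the *VvSUC11*-OE line, 58.7% in the *VvSUC12*-OE line and 61.3% in the *VvSUC27*-OE line, for 132 of 150 comparisons of the 50 families, for 64 of 75 of the 25 eggNOG classes and for 303 of 360 of the 120 KEGG pathways. No role difference can therefore pass a threshold of 0.05, and the ranges are given as a description. The shares of all genes of a library add up to the whole pool, so the share of a family can fall because others rise. In *VvSUC27*-OE fruits the defence families held 10.4 to 10.6% of the pool, against 5.86 to 6.13% in the WT. How far such rises lowered the other shares was not tested.

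As sums, the photosynthesis and the sugar supply families had higher shares in the WT than in any line, and not each family did. The photosynthesis families held 2.79, 2.85 and 2.96% of the pool in the WT, against 2.45 to 2.60% in *VvSUC11*-OE, 1.997 to 2.08% in *VvSUC12*-OE and 2.39 to 2.46% in *VvSUC27*-OE fruits. The light-harvesting family, at 1.18 to 1.26% in the WT, overlapped with 1.17 to 1.21% in *VvSUC27*-OE fruits (exact permutation p = 0.5). The sugar supply families held 0.573, 0.578 and 0.569% in the WT against 0.408 to 0.422%, 0.463 to 0.474% and 0.452 to 0.462%. Of the latter, gene28005 alone held 0.310% in the WT, at 2960 to 3023 FPKM in the WT against 1526 to 1550, 2186 to 2293 and 2314 to 2340 FPKM in the 3 lines. Without the sucrose synthases, the other 95 sugar supply genes held 0.2506 to 0.2564% in the WT, which overlapped with 0.2463 to 0.2529% in *VvSUC11*-OE and was above 0.2313 to 0.2336% in *VvSUC12*-OE and 0.2154 to 0.2245% in *VvSUC27*-OE. The sum of the sucrose transporters was above its WT range of 0.00799 to 0.00828% in each line. The invertase and pectinesterase inhibitors were above theirs in *VvSUC11*-OE (0.0279 to 0.0315%) and the invertases above theirs in *VvSUC27*-OE (0.0306 to 0.0314%). The sucrose transporter *SlSUT1* was higher in the lines, at 37.8 to 39.6 FPKM in the WT and 107 to 116, 54.1 to 57.8 and 46.4 to 50.3 FPKM in the lines. *SlSUT4* overlapped with its WT range of 20.8 to 21.4 FPKM in each line. *SlSUT2*, at 17.2 to 19.8 FPKM in the WT, overlapped in *VvSUC12*-OE fruits (16.3 to 18.5 FPKM). It was higher in *VvSUC11*-OE (22.02 to 23.99 FPKM) and *VvSUC27*-OE fruits (22.02 to 25.04 FPKM). Aquaporins (0.635% in the WT) and the cytoskeleton (0.850%) were also below the WT range in each line, and so was the sum of the cell wall families (1.96%). Not each wall family was lower. The expansins were above their WT range in each line. The pectinesterases and the polygalacturonases and pectate lyases were above theirs in *VvSUC11*-OE and *VvSUC12*-OE fruits. So were the xyloglucan endotransglucosylases in *VvSUC12*-OE and the cellulose synthases in *VvSUC27*-OE fruits.

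The defence and stress roles differed between lines. The defence families held 6.13, 5.86 and 5.92% in the WT, against 3.82 to 4.11% in *VvSUC11*-OE and 10.4 to 10.6% in *VvSUC27*-OE fruits, and overlapped with 6.07 to 6.20% in *VvSUC12*-OE fruits (exact permutation p = 0.3). The defence families include gene16988 and gene17076, whose levels are given above, and in *VvSUC12*-OE fruits the defensins lay above and the protease inhibitors below their WT ranges. The stress and redox families held 1.24, 1.23 and 1.24% in the WT and 2.07 to 2.09, 1.57 to 1.59 and 1.31 to 1.38% in the lines, where in *VvSUC27*-OE fruits the peroxidases lay below their WT range and the metallothioneins overlapped with it. As a sum, translation held 8.20, 8.16 and 8.28% in the WT, with lower shares of 7.75 to 7.91% in *VvSUC11*-OE and higher shares of 9.36 to 9.41% and 8.95 to 8.98% in *VvSUC12*-OE and *VvSUC27*-OE fruits. The cell division families held 1.65, 1.61 and 1.63% in the WT against 1.37 to 1.38, 1.99 to 2.03 and 1.57 to 1.59% in the lines. Most of this sum came from the histones (1.48% in the WT). The cyclins lay above their WT range in *VvSUC27*-OE fruits, and the cyclin-dependent kinase family overlapped with its WT range in *VvSUC11*-OE fruits. The cuticle families (2.13% in the WT) overlapped with *VvSUC11*-OE fruits (exact permutation p = 0.5). As a sum they were lower in *VvSUC12*-OE (1.63 to 1.68%) and *VvSUC27*-OE fruits (1.92 to 1.97%). In *VvSUC11*-OE and *VvSUC27*-OE fruits the GDSL genes and the wax and cutin enzymes lay above their WT ranges, and the LTPs did not. The hormone families (0.359%) overlapped with *VvSUC12*-OE fruits (exact permutation p = 0.4). As a sum they were higher in *VvSUC11*-OE (0.387 to 0.398%) and lower in *VvSUC27*-OE fruits (0.329 to 0.334%). Of them, the ACC synthases and oxidases held 0.0170 to 0.0173% in the WT. They were higher in each line, at 0.0622 to 0.0645, 0.0334 to 0.0352 and 0.0349 to 0.0366%. In *VvSUC12*-OE fruits the cytokinin enzymes were also higher, the auxin transporters overlapped and the other hormone families were lower. Against the hormone sum, the auxin response factors and the ethylene receptors and EIN3 factors were lower in *VvSUC11*-OE fruits. The auxin transporters were higher in *VvSUC27*-OE fruits. As a sum, transcription factors held 1.497, 1.51 and 1.48% in the WT against 1.60 to 1.63, 1.46 to 1.47 and 1.31 to 1.34%. Against this sum, the ERF and AP2, NAC and WRKY factors were lower in *VvSUC11*-OE fruits. The MADS-box and YABBY factors were higher in *VvSUC12*-OE and *VvSUC27*-OE fruits. So were the homeobox and the TCP and SBP factors in *VvSUC12*-OE fruits.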

How the data were processed

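Total RNA of whole fruits at 5 DPA was sequenced by the study on an Illumina platform, with 3 libraries per group. The authors mapped clean reads with TopHat2 (TopHat in the submitters' processing notes, its version not given in the sources used here) to a tomato genome, for which the study cites a file of build SL2.50. A note of the study on FPKM of the transgenes names the tool as coffnorm, spelled so. The authors deposited FPKM per gene and library, and values headed count, which are whole numbers with nearly equal sums in all libraries and were treated as a scaled signal made by the authors, not as read counts. The authors' own FDR and log2 fold changes per comparison, in the same table and in 6 shorter annotated tables, were not used. Gene names are those of the deposited annotation; gene numbers were checked against RefSeq positions (assembly SLM_r2.1) for 7167 of 7271 KEGG gene identifiers, and 98.7% of consecutive genes shared a chromosome.

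Shares were computed per library from FPKM. The implied length was taken from the scaled count and the FPKM. Families, roles and marker classes were lists of words searched in the annotation; they and the genes read were chosen with earlier results of these data known, and words that matched other genes were corrected after the matched genes were seen. The genes named were the 30 with the highest mean WT FPKM, the first 3 of each family and marker class, the 10 most variable genes of at least 20 FPKM, the 3 sucrose transporters and, per line, the 3 largest called changes in each direction among the 100 most abundant WT genes. Further genes of the head of the list were named after their values were seen. Genes with a mean of at least 1 FPKM in either group entered a limma fit on log2 values (version 3.58.1, R 4.3.3, pseudocount 1, variances moderated toward an intensity trend). The fit was tested on simulated data first. Tables were handled with pandas 2.3.3 and numpy 2.4.6. The alternatives were scaled counts, reference genes only, exclusion of short implied lengths, other pseudocounts, filters, scalings and designs, and leaving out each replicate. No sequence or coordinate is printed, and the reads and transgenes were not analysed here.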

Additional observations from a re-analysis of the deposited data

How the results depend on the processing

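The concentration of the WT pool depended on the unit and on genes of short implied length. The first 10 genes held 10.6% of the FPKM, 4.55% by scaled counts (each unit in its own order), 10.8% among reference genes only and 7.52% without genes of implied length under 300 bases, and the first 100 held 24.0%, 15.3%, 24.4% and 20.8%. Leaving out a WT replicate gave 10.5 to 10.7% and 23.9 to 24.2%, and moved none of the shares of 25 eggNOG classes, 15 KEGG pathways and 50 families by more than 1 SD. By scaled counts 16 family shares were more than 1.5 times higher and 11 more than 1.5 times lower, and 8 families had another leading gene: the ribosomal proteins, histones, cyclins, cyclin-dependent kinases, photosystem subunits, pectinesterases, LTPs and bHLH factors. Reads per gene are not in the table, and the median CV of 12.7% between 1 and 5 FPKM limits statements on low genes.

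The numbers of called genes, 1924, 1016 and 1335 for *VvSUC11*-OE, *VvSUC12*-OE and *VvSUC27*-OE, stayed within 1.5 times under each alternative, with 2606, 1479 and 1884 by scaled counts as the highest and 1401, 683 and 957 at a mean of at least 5 FPKM as the lowest. With the replicate block they were 1927, 1019 and 1334, and 19, 9 and 11 of the 100 abundant genes, as without it. Replicate numbers did not pair the libraries: deviations of same-numbered libraries had correlations between -0.10 and 0.17. Of 208 recomputed fold changes of the named genes, 204 kept their call and none reversed. The 4 lost were gene17077 in *VvSUC12*-OE by scaled counts (-0.61) and gene17952 in *VvSUC27*-OE at equal summed FPKM (0.93), without WT replicate 1 (1.00) and without *VvSUC27*-OE replicate 1 (0.99); the cause was not tested.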
